A study of Gossypium arboreum with 12 samples.

Results

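The transcripts described here encode leucine-rich repeat (LRR) proteins and receptor-like kinases of diploid cotton, *Gossypium arboreum*. They are the 6 probe sets, of 21791 for transcripts in the deposited table, that the study listed as differentially expressed transcripts (DETs) between its lines at 10 dpa (days post anthesis) and paired with 4 *Arabidopsis* loci. A transcript is read on this array by a set of short probes, the probe set. The loci are AT5G01890, a leucine-rich receptor-like protein kinase, AT5G10290, an LRR transmembrane protein kinase, AT5G06860, polygalacturonase inhibiting protein 1 (PGIP1), and AT1G33590, an LRR family protein measured by 3 probe sets. These 3 are called AT1G33590 a, b and c here, in falling order of their 10 dpa fold change, and the plot of levels by array gives the array's identifier of each member. Names are those of the closest *Arabidopsis* homolog, so a role given here is known from *Arabidopsis* and not from cotton. The 10 dpa difference between the lines chose the members, and it is therefore given as a description without a test. The 0 dpa arrays played no part in the choice, and the difference between the lines there was tested.

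LRR proteins carry a repeated leucine-rich motif that folds into a curved surface for binding other proteins and peptides. In an LRR receptor-like kinase this surface lies outside the cell and is joined through the membrane to a kinase inside it, so that binding outside starts phosphorylation inside. The best known plant examples are the receptors of brassinosteroids, steroid hormones that promote cell elongation, and the receptors of bacterial peptides in immunity. Polygalacturonase inhibiting proteins have the repeats but no kinase, are secreted into the cell wall, and block fungal enzymes that degrade pectin.

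Ovules of a fuzzy-linted (*FL*) line, labelled wild type, and of its fuzzy-lintless (*Fl*) mutant ANOI 1960 were profiled on the Affymetrix cotton GeneChip at 2 stages. In *FL* ovules, fibre initiates at 0 dpa and elongates at 10 dpa. By electron microscopy the study found few fibre initials in *Fl* at the earlier stage. It found no elongated fibre cells in *Fl* at the later stage. Its conclusion describes the initials differently, as alike in the lines apart from the fuzz. Each of the 4 groups had 3 arrays from separate biological replicates. Both lines were field grown, and the labels name no other treatment. The *Fl* line was made by crossing the lines with *Fl* as the recurrent parent. The study describes the pair as near isogenic, but not perfectly so, and as derived from a first backcross. The background genotype and the lintless trait therefore cannot be told apart. Whole ovules were used, and in them fewer cells of a type and less RNA per cell cannot be told apart. The stage field of *FL* replicate 1 at 10 dpa reads 0 dpa while its title reads 10 dpa, and it was grouped by its title. Over all transcripts this array correlated at 0.914 to 0.915 with the other *FL* arrays of 10 dpa and at -0.56 to -0.55 with those of 0 dpa. These correlations are of values centred per probe set, which lowers them between groups. They place the array with its group and do not measure how alike whole expression profiles are. The spread of values was wider on the *FL* arrays of 10 dpa (SD 0.489 to 0.501) than on the other arrays (SD 0.347 to 0.364). Hybridization controls, bacterial and phage transcripts measured by 27 probe sets, were lower in *Fl* than in *FL* by 0.65 on the log2 scale at 0 dpa and by 0.15 at 10 dpa.

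Levels below are log2 values relative to the median of the same probe set over the 12 arrays. A level of 0 is that median and not absence, and levels of different probe sets cannot be ranked against each other. Differences are *Fl* minus *FL* unless another direction is given. At 10 dpa 5 of the 6 members were lower and 1 was higher in the *Fl* line, the split that the choice of members fixed. Of all transcripts 1.04% were DETs lower and 0.197% were DETs higher at 10 dpa, where a DET has a fold change of at least 3 and an adjusted p (Benjamini-Hochberg) of at most 0.01. At 0 dpa, 1 member was called lower and 1 higher at that adjusted p, against 5.25% and 4.95% of all transcripts, and the other 4 were not called. Neither of these calls reached a fold change of 3, as did 0.0642% (lower) and 0.317% (higher) of all transcripts.

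**Figure D1:**
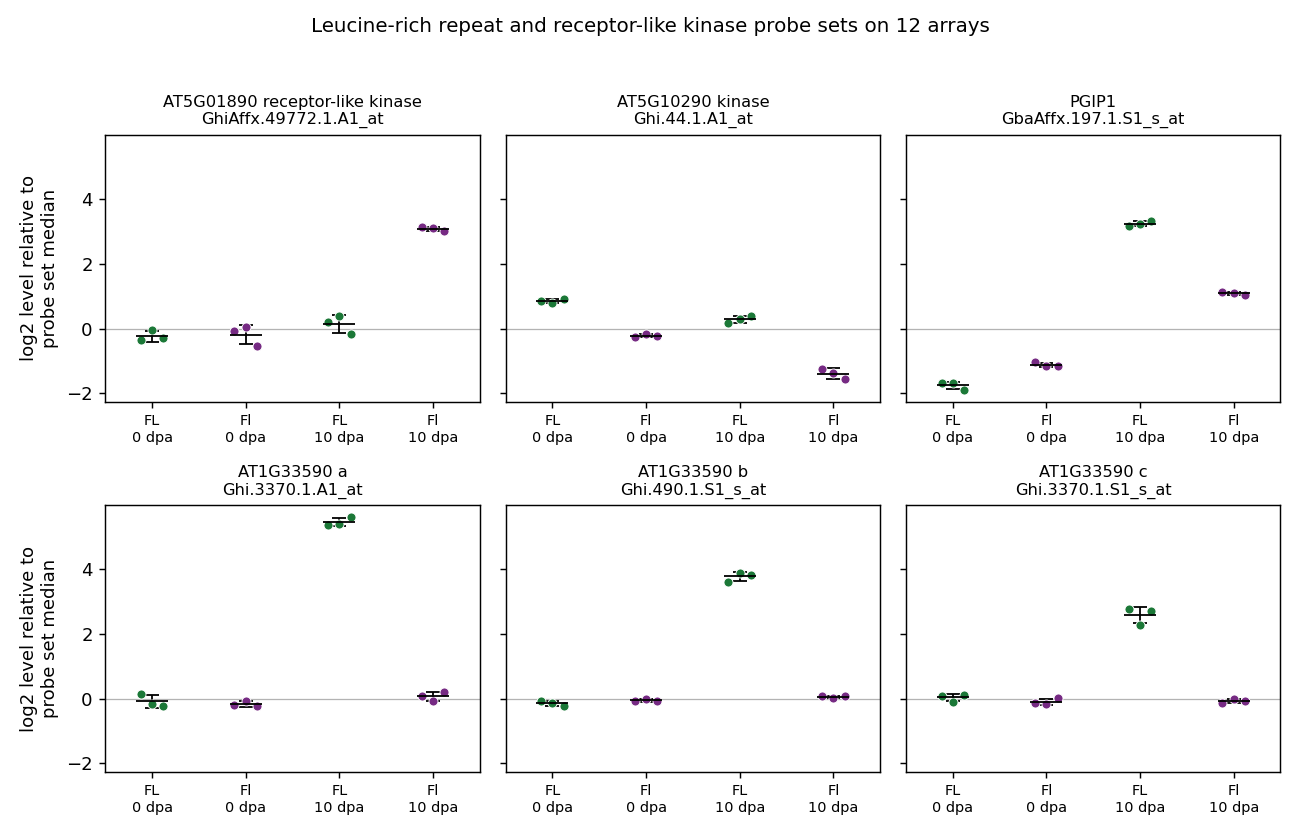
Log2 level of each of the 6 probe sets (vertical axis, relative to the probe set median) on the 12 arrays, by line and stage. Each point is 1 array, and the bar and whiskers are the mean and SD of 3 arrays. The 3 AT1G33590 probe sets stood above 2 in *FL* at 10 dpa and in no other group, and the AT5G01890 kinase stood above 3 in *Fl* at 10 dpa and in no other group.

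The receptor kinases differed from each other in direction. The AT5G01890 kinase was the 1 member with higher signal in the *Fl* line at 10 dpa. Its levels in *FL* were -0.36, -0.04 and -0.31 at 0 dpa and 0.19, 0.40 and -0.16 at 10 dpa. In *Fl* they were -0.07, 0.04 and -0.53 at 0 dpa and 3.12, 3.12 and 3.01 at 10 dpa. The *Fl* arrays of 10 dpa stood apart from all others, and the 3 remaining groups lay within about 1 log2 unit of each other. The difference between the lines at 10 dpa was 2.94 (SE 0.16), a 7.67-fold higher signal that ranked 6 of 21791 from the top. The level at 10 dpa was above that at 0 dpa by 3.27 (SE 0.16, 9.66-fold) in *Fl* and by 0.38 (SE 0.16, 1.30-fold) in *FL*. The gap between these changes, 2.89 (SE 0.23), ranked 3 of 21791 from the top. At 0 dpa the groups overlapped, and the difference of 0.05 (SE 0.16, 95% interval -0.30 to 0.40) was not called (limma, adjusted p = 0.87). With the arrays centred on the hybridization controls it was called at 0.70, where the median of all transcripts was 0.64.

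The study's hormone table pairs the same probe set with AT4G39400, the brassinosteroid receptor BRI1, with a similar description, so which LRR receptor kinase it measures is uncertain. A companion probe set, whose identifier carries the same cluster name with the suffix S1 in place of A1, was not among the study's DETs. Its levels were -0.02, 0.12 and 0.55 in *FL* and 0.05, 0.06 and -0.03 in *Fl* at 0 dpa. The 10 dpa values were 0.08, 0.02 and -0.31 in *FL* and -0.29, -0.28 and -0.18 in *Fl*. The groups overlapped at both stages, and the *Fl* arrays of 10 dpa were among the lower ones. The difference between the lines was -0.18 (SE 0.14) at 0 dpa and -0.18 (SE 0.14) at 10 dpa, and the change from 0 to 10 dpa in *Fl* was -0.28 (SE 0.14). The higher signal at 10 dpa was thus measured by 1 of the 2 probe sets that carry this cluster name. The sources used here do not say whether the 2 probe sets read the same transcript.

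**Figure D2:**
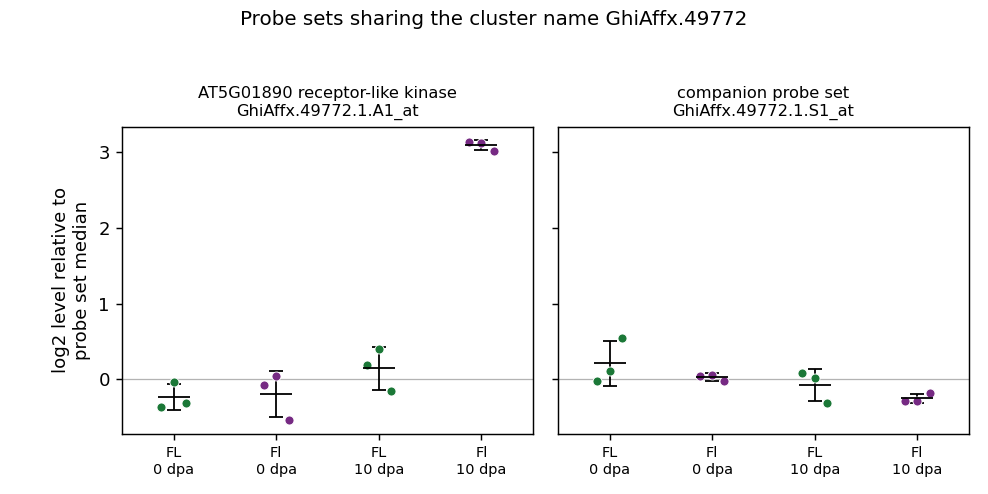
Log2 level (vertical axis, relative to each probe set's own median) of the 2 probe sets that share the cluster name of the AT5G01890 kinase, by line and stage. Points are arrays, and the bar and whiskers are the mean and SD of 3 arrays. The A1 probe set had a mean of 3.09 in *Fl* at 10 dpa, where the S1 probe set had a mean of -0.25.

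AT5G10290 is a transmembrane kinase of LRR subfamily II, the subfamily of the SERK co-receptors that pair with BRI1 and with immune receptors. The hormone table of the study names the same probe set after SERK1 (AT1G71830). Among the members it alone was called lower in *Fl* at 0 dpa, and it was lower there at 10 dpa as well. At 0 dpa its levels were 0.85, 0.79 and 0.90 in *FL* and -0.27, -0.17 and -0.22 in *Fl*. Those at 10 dpa were 0.17, 0.29 and 0.38 in *FL* and -1.24, -1.37 and -1.56 in *Fl*. Every *FL* array lay above every *Fl* array, whichever stage was taken. At 0 dpa the *Fl* line was down regulated by 1.07 on the log2 scale (SE 0.085, 2.10-fold lower), with an adjusted p of 6.0e-06 in limma, and the difference ranked 41 of 21791 from the bottom. It kept its call with each of the 12 arrays left out in turn. The hybridization controls were lower in *Fl* at this stage too, and with the arrays centred on them the difference was -0.42, more than 1.5 times smaller in fold, with an adjusted p of 0.0054, while the median of all transcripts was 0.64. At 10 dpa the difference was -1.67 (SE 0.085, 3.18-fold lower), which made this member the nearest to the 3-fold threshold. The change from 0 to 10 dpa was -0.57 (SE 0.085) in *FL* and -1.17 (SE 0.085) in *Fl*, and the gap between the changes was -0.60 (SE 0.12).

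PGIP1 is the secreted inhibitor among the members. It is filed by the study with the LRR XI receptor kinases and, in the hormone table, after BRI1-like 3 (AT3G13380). Its levels at 0 dpa were -1.68, -1.70 and -1.88 in *FL* and -1.04, -1.17 and -1.15 in *Fl*. The 10 dpa levels were 3.18, 3.21 and 3.32 in *FL* and 1.14, 1.09 and 1.04 in *Fl*. The groups did not overlap at either stage, and *Fl* was the higher line at 0 dpa and the lower line at 10 dpa. At 0 dpa PGIP1 was up regulated in *Fl* by 0.64 (SE 0.072, 1.55-fold higher), with an adjusted p of 0.00012 in limma. That call was lost under the unpaired t-test of the study's methods (adjusted p = 0.024), which estimates the spread of each probe set by itself. With the arrays centred on the hybridization controls the difference was 1.29, against 0.64 for the median of all transcripts. At 10 dpa the difference was -2.15 (SE 0.072, 4.43-fold lower), and -0.87 when the deposited values were quantile normalized again. That step was applied to values already centred per probe set, and it gives every array the same distribution. It therefore narrows the wider spread of the *FL* arrays of 10 dpa by design. Whether that spread is technical was not tested.

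PGIP1 was the 1 member with a signal at least 3-fold higher at 10 than at 0 dpa in both lines. The change was 4.99 (SE 0.072, 31.8-fold) in *FL*, ranking 39 of 21791 from the top, and 2.21 (SE 0.072, 4.62-fold) in *Fl*. The gap between the changes was -2.78 (SE 0.10), and -1.47 with quantile normalization repeated. Ranked by level, *FL* at 10 dpa was the highest group, followed by *Fl* at 10 dpa, *Fl* at 0 dpa and *FL* at 0 dpa, with no overlap between any neighbours in this order.

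The 3 probe sets of AT1G33590, the LRR family protein that the study files under pathogenesis-related proteins, shared a pattern of high signal in *FL* at 10 dpa. Probe set a had the widest range of the 6 members. Its levels at 0 dpa were 0.15, -0.18 and -0.23 in *FL* and -0.20, -0.07 and -0.24 in *Fl*. The levels at 10 dpa were 5.35, 5.40 and 5.60 in *FL* and 0.07, -0.08 and 0.21 in *Fl*. The *FL* arrays of 10 dpa stood more than 5 log2 units above the other 9 arrays. The difference between the lines at 10 dpa was -5.38 (SE 0.11, 41.7-fold lower) and ranked 7 of 21791 from the bottom. It was -3.92 when the deposited values were quantile normalized again, which moved the values of probe sets b and c likewise. The change from 0 to 10 dpa was 5.53 (SE 0.11, 46.3-fold) in *FL*, ranking 21 of 21791 from the top, and 0.23 (SE 0.11) in *Fl*. The gap between the changes, -5.30 (SE 0.16), ranked 5 of 21791 from the bottom, and was -3.83 with that normalization.

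Probe set b had levels of -0.08, -0.13 and -0.22 in *FL* and -0.08, -0.01 and -0.08 in *Fl* at 0 dpa. For 10 dpa the levels were 3.61, 3.89 and 3.82 in *FL* and 0.08, 0.01 and 0.07 in *Fl*. The lines were far apart at 10 dpa and close together at 0 dpa. The 10 dpa difference was -3.72 (SE 0.075, 13.2-fold lower), and -2.34 with quantile normalization repeated. From 0 to 10 dpa the level was higher by 3.92 (SE 0.075, 15.1-fold) in *FL* and by 0.11 (SE 0.075) in *Fl*.

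Probe set c shares its cluster name with probe set a. Its levels at 0 dpa were 0.09, -0.10 and 0.11 in *FL* and -0.12, -0.16 and 0.01 in *Fl*. Those of 10 dpa were 2.76, 2.28 and 2.70 in *FL* and -0.15, -0.01 and -0.07 in *Fl*. Its *FL* arrays of 10 dpa again stood above all others, with replicate 2 the lowest of them (SD 0.26). The 10 dpa difference was -2.65 (SE 0.11, 6.29-fold lower), and -1.63 with quantile normalization repeated. The change from 0 to 10 dpa in *FL* was 2.54 (SE 0.11, 5.83-fold) and that in *Fl* was 0.02 (SE 0.11). The 2 probe sets with this cluster name thus differed in the size of the change, 46.3-fold for a against 5.83-fold for c in *FL*.

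The transcript of probe set a was also measured by quantitative PCR in the study. It was reported there as lower in *Fl* at both stages, and by more at the later stage. On the arrays, none of the AT1G33590 probe sets was called between the lines at 0 dpa. The differences were -0.08 for a (95% interval -0.33 to 0.16, adjusted p = 0.67 in limma), 0.09 for b (-0.07 to 0.25, adjusted p = 0.47) and -0.13 for c (-0.38 to 0.12, adjusted p = 0.50). The arrays of probe set b did not overlap between the lines, as for 3 of the 6 members and 35.6% of all transcripts at 0 dpa, but its nearest arrays were both at -0.08. Centring the arrays on the hybridization controls brought all 3 to higher in *Fl*, at 0.57, 0.74 and 0.52, where the median of all transcripts was 0.64.

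**Figure D3:**
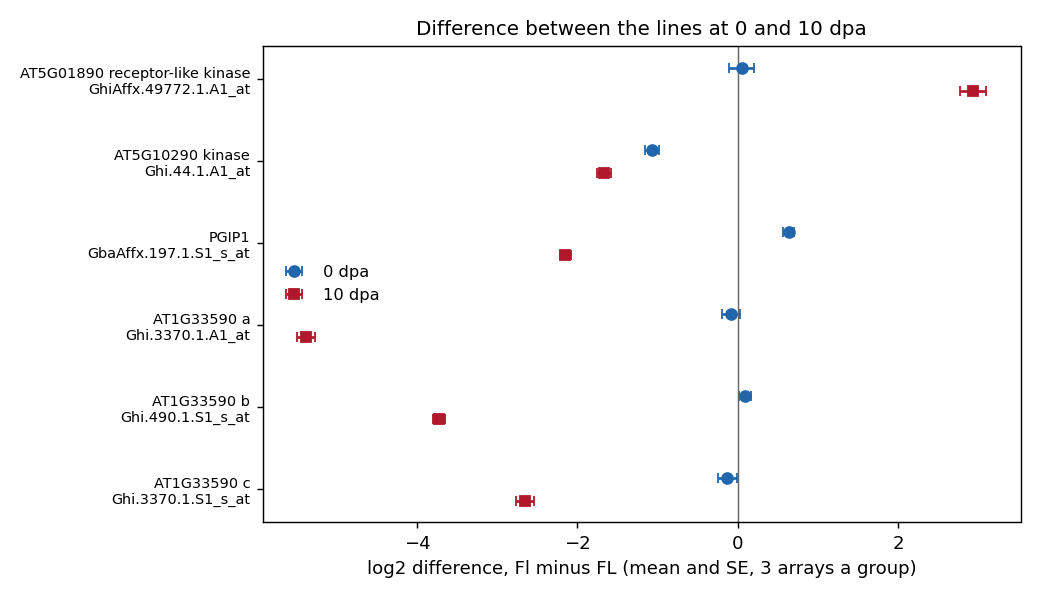
Log2 difference between the lines, *Fl* minus *FL* (horizontal axis), for each of the 6 members at 0 dpa (circles) and 10 dpa (squares). Points are differences of means over 3 arrays a group and bars are the SE of the fit over 12 arrays. At 0 dpa the members lay between -1.07 and 0.64, and at 10 dpa between -5.38 and 2.94.

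The change with stage was described by line, since the arrays of 10 dpa chose the members. In *FL*, PGIP1 and the 3 AT1G33590 probe sets were higher at 10 than at 0 dpa by 5.83-fold or more, where 2.94% of all transcripts were DETs higher. With quantile normalization repeated these changes in *FL* were 3.69 on the log2 scale for PGIP1, 4.11 for a, 2.57 for b and 1.54 for c, the last under 3-fold. In *Fl*, PGIP1 (4.62-fold) and the AT5G01890 kinase (9.66-fold) were higher by 3-fold or more, where 1.83% of all transcripts were. No member was lower by 3-fold with stage in either line, as were 0.927% of all transcripts in *FL* and 1.08% in *Fl*. The 3 AT1G33590 probe sets in *Fl* had changes of 0.02 to 0.23 on the log2 scale, so that at 10 dpa their *Fl* levels were near those of both lines at 0 dpa.

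The nearest transcripts to each member were found by the root mean square (RMS) difference over the 12 arrays after each probe set was centred on its own mean. Nearest to AT1G33590 a was expansin-like B1 (AT4G17030.1, RMS 0.21 log2), a relative of the expansins that loosen cell walls, followed by a transcript with a weak match to a lipid-transfer protein (AT3G22600.1, 0.29) and asparagine synthase 1 (AT3G47340.1, 0.34). Probe set b lay nearest to ethylene-forming enzyme (AT1G05010.1, 0.14), which makes ethylene from its precursor. Probe set c lay nearest to a cytochrome P450 (AT3G14680.1, 0.15), then an ethylene-responsive element binding protein (AT3G16770.1, 0.16). The RMS difference takes in the size of a change as well as its pattern. By this measure each AT1G33590 probe set was nearer to such a transcript than to the other AT1G33590 probe sets (RMS 0.56 to 1.27 log2). Those 3 shared a pattern and differed in size, with changes in *FL* of 5.53 for a, 3.92 for b and 2.54 for c.

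PGIP1 was closest to bifunctional nuclease I (AT1G11190.1, RMS 0.23 log2), which degrades RNA and DNA, and to beta-xylosidase 1 (AT5G49360.1, 0.23), which trims xylose from wall polymers. A LysM domain protein (AT5G62150.1, 0.27) followed. The AT5G10290 kinase was closest to an unknown protein (AT5G66985.1, 0.25). The AT5G01890 kinase had no neighbour as close, its nearest being a phosphoenolpyruvate/phosphate translocator (AT3G01550.1, 0.56).

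The 3 lists of signalling and defence transcripts, and a list of fibre markers, were set beside the members. The study chose them on these arrays, so their 10 dpa direction is not independent evidence. Centred on the hybridization controls, 3 MAP kinase, 3 biotic stress, 7 brassinosteroid and 4 fibre marker probe sets were called higher in *Fl* at 0 dpa. So were 19278 of all 21791 transcripts, with a median difference of 0.64 for all transcripts. The MAP kinase cascade relays signals from receptor kinases by serial phosphorylation. Its 4 probe sets (MPK3 on 2 of them, MKK9 and a MAP kinase kinase kinase 13) were all lower in *Fl* at 10 dpa, with a median difference of -2.98, where the median of all transcripts was 0.04. At 0 dpa none of the 4 was called, with differences from -0.24 to 0.56 and adjusted p of 0.049 to 0.90 in limma.

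The biotic stress list held 5 probe sets for secreted defence proteins, all lower in *Fl* at 10 dpa with a median difference of -2.70. At 0 dpa 2 of the 5 were called lower in *Fl*, against 5.25% of all transcripts, and 3 were not called. The called ones were a plant basic secretory protein (AT2G15130.1, -0.75, adjusted p = 0.0015 in limma) and a dirigent-like protein (AT1G64160.1, -0.65, adjusted p = 0.0014), a family that guides lignan coupling. None of the 5 was called lower under the t-test or with that centring, and 1 was with the arrays of 0 dpa fitted alone. Pathogenesis-related 4, a chitin-binding defence protein, had a difference of -0.11 at 0 dpa (adjusted p = 0.46) and of -2.56 at 10 dpa.

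The brassinosteroid list held 8 further probe sets, all lower in *Fl* at 10 dpa with a median difference of -2.55, from -4.00 to -0.23. The AT5G01890 kinase, which the study places in the same hormone class, was higher by 2.94. The brassinosteroid-responsive RING-H2 transcript (AT3G61460.1) differed by 2.41 at 0 dpa, and the study took it up for that difference, so it is left out of the count at 0 dpa. Of the remaining 7, 1 was called higher in *Fl* and none lower, against 4.95% and 5.25% of all transcripts. Don-glucosyltransferase (AT2G36800.1 in the hormone table), which in *Arabidopsis* attaches glucose to brassinosteroids and to a fungal toxin, was higher by 0.75 (adjusted p = 0.0058 in limma). The study's list of DETs pairs this probe set with another glucosyltransferase, so which enzyme it measures is uncertain. Some other probe sets of the brassinosteroid list also carry another name there. Several alternatives ended the don-glucosyltransferase call, leaving 0 of the 7. They included the t-test, the arrays of 0 dpa fitted alone, and leaving out *FL* replicate 2 or any single *Fl* replicate of 0 dpa.

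Markers of elongating fibre, like the AT1G33590 probe sets, were highest in *FL* at 10 dpa. The mean level of the 5 fibre marker probe sets (expansin-like B1 on 2 of them, beta-6 tubulin, profilin 5 and actin depolymerizing factor 5) was 3.79 to 4.05 in *FL* at 10 dpa, -0.0034 to 0.16 in *Fl* at 10 dpa and -0.34 to -0.20 in both lines at 0 dpa. Group means in *FL* at 10 dpa ran from 1.94 for actin depolymerizing factor 5 to 6.01 for an expansin-like B1 probe set. From 0 to 10 dpa in *Fl*, actin depolymerizing factor 5 changed by 1.16 and profilin 5 by 0.50. The expansin-like B1 probe sets changed by 0.18 and -0.02 and beta-6 tubulin by -0.07, against 0.02 to 0.23 for AT1G33590. All 5 were lower in *Fl* at 10 dpa, with a median difference of -3.31. They were picked from transcripts that the study lists as lower in *Fl* at 10 dpa, so the choice fixed that direction. The study also ties to fibre elongation some transcripts that were higher in *Fl* at 10 dpa. Among these are a FASCICLIN-like arabinogalactan protein and some xyloglucan endotransglucosylase/hydrolases, while others of the latter family were lower. None of them is in the marker list. None was called at 0 dpa in limma, with differences from -0.35 to 0.24. The lines did not overlap at 0 dpa for 3 of the 5, and for 35.6% of all transcripts. The part of the fibre markers in the members' differences at 10 dpa was not tested.

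**Figure D4:**
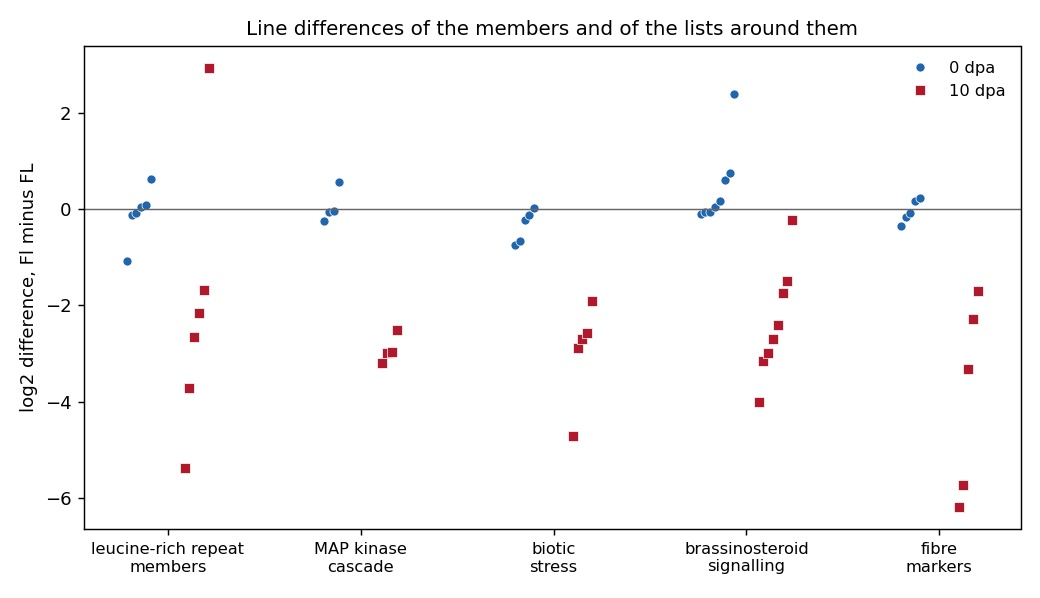
Log2 difference between the lines, *Fl* minus *FL* (vertical axis), for the 6 members and for the probe sets of the 4 lists (4, 5, 8 and 5 probe sets), at 0 dpa (circles) and 10 dpa (squares). Each point is 1 probe set. At 10 dpa 1 member lay above 0, at 2.94, and every probe set of the lists lay below 0. The fibre markers were picked from transcripts that the study lists as lower in *Fl* at 10 dpa.

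Across all transcripts the threshold of 3-fold at 10 dpa fell between a transcript that was 3.01-fold lower, just inside it, and one that was 2.98-fold higher, just outside. The member nearest to it, the AT5G10290 kinase at 3.18-fold, passed under 3-fold when arrays were centred on the hybridization controls, with a difference of -1.52. Of the members, 3 have identifiers ending in _s_at, whose probes can also take up signal from close relatives in a gene family. They are PGIP1 and AT1G33590 b and c, and for these a level may belong to more than 1 gene. How well the probes of any member match *G. arboreum* sequences was not checked.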

How the data were processed

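The authors hybridized biotinylated cRNA of 12 ovule samples to the cotton GeneChip and summarised probe sets by robust multi-array average (RMA, also named in the submitters' processing notes) in GeneSpring GX-11.5. The deposited values are on the log2 scale for 21889 probe sets, of which 98 are controls. Every probe set is centred on a median of 0, a step not given in the sources used here. Absolute brightness and calls of presence therefore could not be had, and the number of arrays limits the precision. All 12 arrays were fitted in limma 3.58.1 (R 4.3.3) with a mean for each group, which took the place of the unpaired t-test of the methods, kept as an alternative. P-values were Benjamini-Hochberg adjusted over 21791 transcripts, and they measure the spread between the biological replicates of the labels. The fit was tested on simulated data.

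The members and lists were chosen with earlier results of these data known. The text names the 6 members, a probe set that shares a cluster name with one, probe sets of the lists, for each member up to 3 nearest probe sets where a study table names them, and the transcripts on either side of the 3-fold threshold. A list of further LRR transcripts and sequences of the members are not analysed here.

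The alternatives were the replicate number as a block, quantile normalization of the centred values, and centring on hybridization controls or array medians. The others were the t-test, arrays of 1 stage only, and leaving out each array.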

Additional observations from a re-analysis of the deposited data

Results flagged for a closer look

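PGIP1 was higher on every *Fl* array than on any *FL* array at 0 dpa and lower on every *Fl* array at 10 dpa, and the difference between the lines moved by -2.78 on the log2 scale (-1.47 with quantile normalization repeated). Probe set b of AT1G33590 was flagged too, with no overlap at either stage, and its difference moved by -3.81 (-2.42 with that normalization). Its 0 dpa difference of 0.09 was not called (adjusted p = 0.47 in limma), so no direction was established there. At 0 dpa its nearest arrays were both at -0.08, and 35.6% of all transcripts did not overlap. The difference between the stages was not tested for PGIP1 or probe set b, because the arrays of 10 dpa chose the members.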

How the results depend on the processing

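The log2 difference of the AT5G10290 kinase at 0 dpa was called under all 18 alternatives (-1.50 to -0.42, adjusted p 8.8e-07 to 0.0054). PGIP1 at 0 dpa stayed higher (0.57 to 1.29) and lost its call under the unpaired t-test (0.64, adjusted p = 0.024), where 0 members were called higher. Centring on hybridization controls put the median of all transcripts at 0.64 at 0 dpa and 0.20 at 10 dpa. With it 5 members were called higher at 0 dpa, as were 19278 of all 21791 transcripts. These members were PGIP1 and the AT5G01890 kinase (0.70), AT1G33590 a (0.57), AT1G33590 b (0.74) and AT1G33590 c (0.52). The 10 dpa differences under that centring were -1.52 for the AT5G10290 kinase, -1.99 for PGIP1, -5.23 for AT1G33590 a, -3.57 for AT1G33590 b and -2.50 for AT1G33590 c. With quantile normalization repeated they were -1.84, -0.87, -3.92, -2.34 and -1.63, in the same order. On these centred values that step narrows the wider spread of the *FL* arrays of 10 dpa by design. Under each of these scalings 4 members, in place of 5, were lower by 3-fold or more. PGIP1 was under 3-fold after quantile normalization and the AT5G10290 kinase after centring. The changes from 0 to 10 dpa in *Fl* of AT1G33590 b and AT1G33590 c turned to -0.073 and -0.16 with that centring. The cause was not tested.

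Leaving out 1 array gave 0 dpa differences of -0.063 to 0.22 for the AT5G01890 kinase, -0.15 to 0.034 for AT1G33590 a, 0.052 to 0.12 for AT1G33590 b and -0.20 to -0.089 for AT1G33590 c, none called. It turned the *Fl* change with stage of AT1G33590 c (lowest -0.016, highest 0.069) without *Fl* replicate 2 of 0 dpa (-0.016) or of 10 dpa (-0.015). Of all values and counts under an alternative, 849 kept direction and call where tested, or size where not, 74 moved in size, 10 turned (2 of them then called), 2 gained a call and 1 lost it.

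Over all transcripts, DETs at 0 dpa were 69 higher and 14 lower, against 192 and 4 with centring on hybridization controls and 28 lower with quantile normalization. At 10 dpa they were 43 higher and 227 lower, against 65 higher with that centring, 15 higher with the t-test and 136 lower with quantile normalization. At any fold, 1078 were called higher and 1144 lower at 0 dpa, against 19278 and 45 with centring, 189 and 144 with the t-test, 683 and 584 with arrays of 1 stage, and as few as 631 and 578 with an array left out (without *Fl* replicate 1 of 0 dpa). At 10 dpa 1993 were called higher and 2114 lower, against 1024 lower and 669 higher with the t-test and 1012 lower with centring. With the replicate number as a block, 863 were called higher and 832 lower at 0 dpa, and no call of a member changed, while 0 of 7 brassinosteroid probe sets, in place of 1, were called higher (2 with quantile normalization). Alternatives for the lists were chosen after seeing the data. Deviations of same-numbered samples correlated at -0.20 to 0.085 over 18 pairs and of other pairs at -0.11 to 0.17, so samples share only a number. Counts of further LRR transcripts were not run, as no table here names them.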
